A study of Mus musculus with 2 samples.

Results

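Among CD11b+ cells sorted from inflamed mouse gingiva, the cells described here carried transcripts of the C-type lectins Cd209a, Clec10a or Mgl2 together with abundant MHC class II, the combination that marks Cd209a type 2 dendritic cells. They were chosen by measured values alone. A barcode was kept at 500 or more unique molecular identifiers (UMIs, each counting 1 captured transcript), 250 or more genes and at most 10% mitochondrial UMIs. It then needed 4 or more UMIs of Cd209a, Clec10a and Mgl2 together, 1.5% or more of its UMIs from Cd74, H2-Aa and H2-Ab1, under 0.4% from C1qa, C1qb and C1qc, under 3% from S100a8 and S100a9, and no more than 1 UMI of Cd79a, Cd3e and Cd3g. This left 383 of 21268 kept cells, 192 of 9596 in the 10% Tet2-/- BMT library and 191 of 11672 in the 10% Tet2+/+ BMT library.

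Both groups were recipients of transplanted bone marrow (BMT), labelled 10% Tet2-/- in one and 10% Tet2+/+ (also labelled WT) in the other, and were sampled 12 weeks later after 5 days of ligature-induced periodontitis, in which a thread tied round a tooth inflames the gum. The Tet2 protein oxidises 5-methylcytosine, a step towards removing the mark from DNA. The protocol names a CD45.2+CD11b+ gate for 10% Tet2-/- BMT and a CD45+CD11b+ gate for 10% Tet2+/+ BMT, whereas both sample titles name CD45.2+CD11b+. The number and sex of the mice, the rest of the transplanted marrow and the deleted part of Tet2 are not given in the sources used here. Each group had 1 library, so the spread between animals is unknown and no difference between groups was tested. All intervals are exact 95% intervals that cover counting error only.

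Type 2 conventional dendritic cells derive from bone marrow precursors that need the growth factor receptor Flt3, take up antigen in barrier tissues and, once they express the chemokine receptor Ccr7, carry it to lymph nodes, where they present it on MHC class II to CD4+ T cells. Cd209a is a mouse relative of the human pathogen receptor DC-SIGN. Clec10a and Mgl2, which lie side by side on mouse chromosome 11 (70156197-70170834 and 70130329-70137550, GRCm38), encode near-identical galactose-type lectins known as CD301a and CD301b, so that reads could be split between them uncertainly. In mouse skin, Mgl2+ dendritic cells are known for their part in type 2 helper T cell responses. The chemokines Ccl17 and Ccl22 are ligands of Ccr4, a receptor of helper and regulatory T cells and of skin-homing T cells.

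The selected cells made up 2.00% (1.73 to 2.30) of kept cells in 10% Tet2-/- BMT and 1.64% (1.41 to 1.88) in 10% Tet2+/+ BMT. Successive conditions left 405, 359, 254, 237 and 192 cells in 10% Tet2-/- BMT against 376, 319, 250, 234 and 191 cells in 10% Tet2+/+ BMT, in the order lectins, MHC class II, C1q, S100a8 with S100a9, and lymphoid transcripts. The last condition removed 45 and 43 cells that carried 2 or more UMIs of Cd79a or of Cd3e and Cd3g. Those cells had medians of 20264 and 22800 UMIs, and without that condition the shares were 2.47% in 10% Tet2-/- BMT and 2.01% in 10% Tet2+/+ BMT. Scrublet, a caller of doublets, marked 0 of 9596 cells in 10% Tet2-/- BMT and 346 of 11672 in 10% Tet2+/+ BMT, so its calls were not used and doublets may remain. Without the 787 and 973 cells of highest doublet score, 179 and 187 selected cells were left.

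The selected cells were deep, with a median of 15781 UMIs (1108 to 52538) in 10% Tet2-/- BMT and 14423 UMIs (1394 to 44040) in 10% Tet2+/+ BMT. All other kept cells had medians of 5790.5 and 4930 UMIs. Summed over the selected cells, the libraries gave 3292282 and 3048320 UMIs, out of library totals of 93919724 and 100782700. Of the selected cells, 10.9% in 10% Tet2-/- BMT and 20.4% in 10% Tet2+/+ BMT lay above the 95th percentile of UMIs among their library's kept cells. A minimum in UMIs is easier to reach for a deep cell. With the lectin minimum set at 0.05% of a cell's UMIs instead, the counts were 155 and 173 cells. Barcodes were shared by 31 kept cells of both libraries, none of them selected in both, and 2 selected cells had a barcode also found among kept cells of the other library.

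Cells at the edge of the lectin condition resembled the rest only in part. The 8 and 13 cells with exactly 4 lectin UMIs had Flt3 at 80.9 and 88.6 CPM (a gene's share of all UMIs, scaled to a total of 1e6) and Ly6c2, a monocyte gene, at 791 and 793 CPM. The 8 and 14 cells with 3 lectin UMIs, which were left out, had Flt3 at 18.0 and 137 CPM and Ly6c2 at 442 and 658 CPM. At the C1q condition, the 6 and 6 cells at 0.2% to under 0.4% had Mgl2 at 638 and 1441 CPM and Flt3 at 7.42 and 0 CPM. The 15 and 8 cells just beyond it, at 0.4% to 0.8%, had Mgl2 at 766 and 1428 CPM and Flt3 at 41.7 and 0 CPM. Mgl2 was thus alike on both sides of the C1q condition within each library. At the MHC class II condition, the 24 and 27 cells at 1.5% to 3% had Flt3 at 57.0 and 79.4 CPM, and the 5 and 11 cells at 0.75% to under 1.5%, left out, had 12.2 and 48.1 CPM.

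The 3 lectins were carried by different, overlapping sets of the selected cells. At least 1 UMI of Cd209a was found in 157 of 192 cells in 10% Tet2-/- BMT and 160 of 191 in 10% Tet2+/+ BMT, of Clec10a in 159 and 138, and of Mgl2 in 71 and 77. All 3 occurred together in 44 (22.9%) and 36 (18.8%) cells. Summed levels were 643 against 733 CPM for Cd209a, 448 against 347 CPM for Clec10a and 352 against 504 CPM for Mgl2, and since the rule used these genes, these are descriptions. Per cell, Cd209a ran from 0 through a median of 4.23 to 36.1 UMIs per 10000 in 10% Tet2-/- BMT and from 0 through 6.31 to 35.6 in 10% Tet2+/+ BMT, so the libraries overlapped throughout. With every cell thinned to 2000 UMIs, which left out 2 and 2 of the selected cells, Cd209a was seen in 51.6% and 60.8%, Clec10a in 48.4% and 38.6%, and Mgl2 in 25.3% and 30.2%. In thinned neutrophil-transcript cells, a set that should lack these lectins (median depth before thinning 4842.5 and 4725 UMIs), the shares lay between 0.185% and 0.781%.

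The label was set beside genes that the rule did not use, some of them named after their values were seen. All other kept cells were mostly neutrophil-transcript cells (5636 of 9404 in 10% Tet2-/- BMT and 6535 of 11481 in 10% Tet2+/+ BMT). A level above theirs therefore does not separate type 2 from other dendritic cells. Flt3 was at 62.0 CPM (53.8 to 71.1) in 10% Tet2-/- BMT and 65.3 CPM (56.5 to 75) in 10% Tet2+/+ BMT, against 7.81 and 6.85 CPM in all other kept cells. Zbtb46, a transcription factor of conventional dendritic cells, was at 20.4 and 19.0 CPM against 1.55 and 1.57 CPM in other cells. Irf4, the factor that type 2 dendritic cells depend on, was at 61.7 and 45.6 CPM against 8.28 and 9.18 CPM. Genes for the integrin CD11c (Itgax, 188 and 175 CPM), the tryptophan enzyme Kmo (68.3 and 65.9 CPM), the peptidase Dpp4 (96.3 and 91.2 CPM) and the co-repressor Cbfa2t3 (230 and 252 CPM) were likewise above their levels in other cells. Of the 27 genes on a list for type 2 conventional dendritic cells, 2 (Esam and Dtx1) had no UMI in the selected cells of either library, and Clec4a4 was at 0.608 and 0.328 CPM. Sirpa (128.5 and 149.6 CPM) and Cd24a (70.5 and 95.8 CPM), from the same list, were below their levels in other cells. Those levels were 183.4 and 193.2 CPM for Sirpa, and 328 and 359 CPM for Cd24a. The 27 genes summed to 5226 and 5312 CPM, against 3670 and 3741 CPM in other cells. Itgam, which encodes the CD11b used for sorting, was at 130 and 170 CPM, below the 407 and 402 CPM of other kept cells.

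Several defining genes of other cell types were near 0, while others were not. Xcr1, the chemokine receptor of type 1 dendritic cells, was at 0.911 and 0.984 CPM, and Clec9a at 8.81 and 8.53 CPM. Other genes of the type 1 list were above their level in all other kept cells, among them the integrin gene Itgae (49.8 and 43.0 CPM against 6.15 and 6.30 CPM), the transcription factor Batf3 (78.7 and 101 CPM against 16.9 and 17.8 CPM) and Wdfy4, needed for cross-presentation (169 and 137 CPM against 53.0 and 53.1 CPM), and the 14 genes summed to 711 and 776 CPM against 425 and 403 CPM. The Langerhans cell lectin Cd207 was at 0.304 and 2.30 CPM and the plasmacytoid dendritic cell gene Siglech at 1.82 and 0.328 CPM. The macrophage genes Mertk and Lyve1 stayed below 1 CPM in both. Some other genes of these lists were above other kept cells, such as Bst2 (249 and 256 CPM against 125 and 132 CPM). Mrc1 was at 85.4 and 124 CPM against 50.5 and 35.6 CPM. The Langerhans list summed to 272 and 260 CPM, against 123.5 and 161 CPM in other cells. For the plasmacytoid list the sums were 362 and 375 CPM, against 273 and 315 CPM. The macrophage list, with the C1q genes that the rule limits, summed to 1808 and 1968 CPM, against 7721 and 5824 CPM. Among genes of mature migratory dendritic cells, the actin bundler Fscn1 was low, at 2.73 and 4.27 CPM. Ccr7 was at 66.8 and 44.3 CPM, against 48.0 and 42.2 CPM in other kept cells. Cd83 was at 324 and 254 CPM, against 109 and 80.25 CPM. The 23 genes of that list summed to 1398 and 1373 CPM, against 1271 and 1245 CPM in other kept cells. Monocyte genes were present, with Ccr2 at 559 and 614 CPM, Ly6c2 at 116 and 211 CPM, and Lyz2 at 3637 and 3476 CPM. The 15 monocyte genes measured summed to 6287 and 6606 CPM in the selected cells, against 15874 and 14257 CPM in all other kept cells. Whether monocyte-derived cells are among them was not tested.

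**Figure D1:**
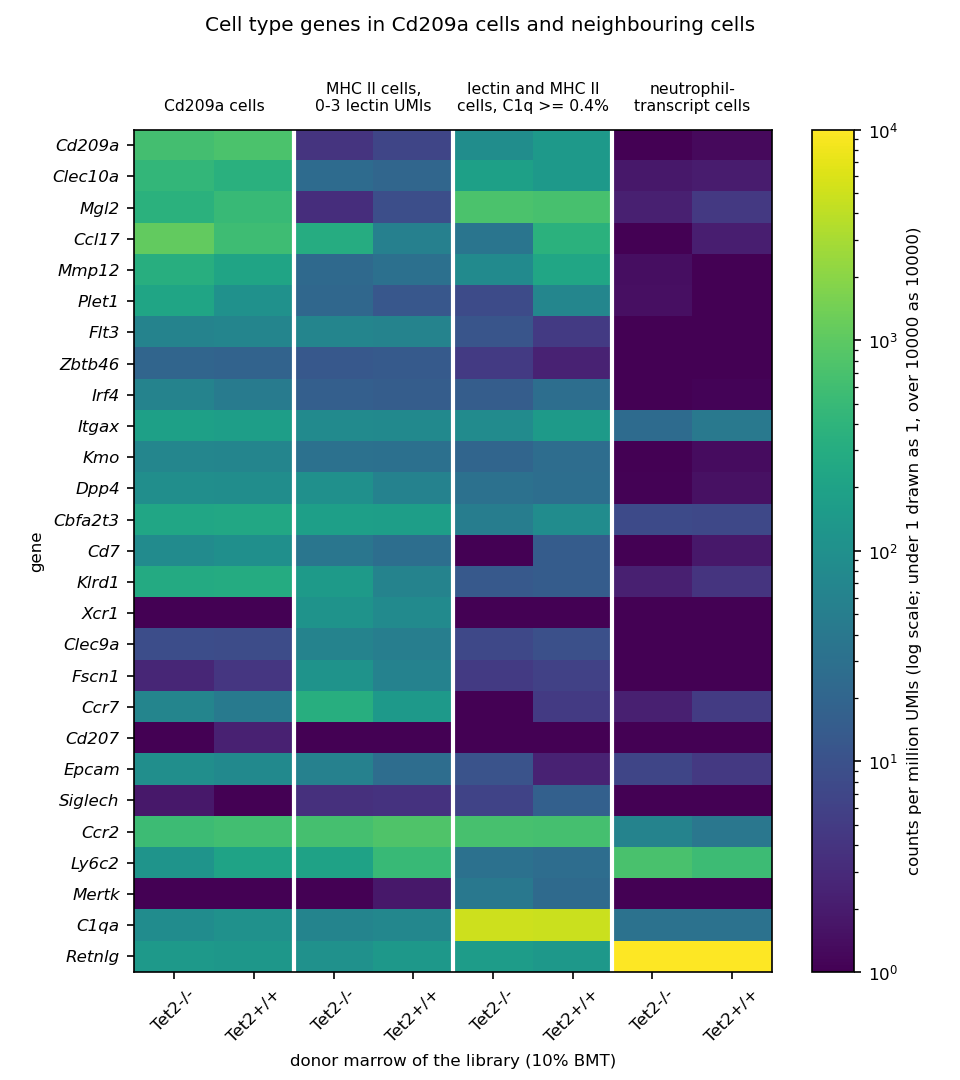
Summed level of 27 genes (rows, colour, CPM on a log scale) in the selected Cd209a cells and 3 neighbouring sets, each with 10% Tet2-/- BMT left of 10% Tet2+/+ BMT. Flt3, Zbtb46 and Irf4 are above the neutrophil-transcript cells, Xcr1, Fscn1 and most Ccr7 lie in MHC class II cells with 0 to 3 lectin UMIs, and C1qa lies in the cells with 0.4% or more C1q.

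Genes at 100 CPM or more in the selected cells of both libraries were ranked by their ratio over all other kept cells. The ranking took the lower of both ratios with 10 CPM added to each level, and the folds printed here are without that addition. Beyond genes of the rule, the first were Ccl17 (31-fold in 10% Tet2-/- BMT and 35-fold in 10% Tet2+/+ BMT) and the elastase Mmp12 (23-fold and 21.6-fold). Next came Tnip3, an inhibitor of NF-kB signalling (13.1-fold and 17.9-fold), and Plet1, a surface protein first described in the placenta (43.5-fold and 38.9-fold). The lectin-like receptor Klrd1 (12.1-fold and 12-fold) and the co-stimulatory ligand Tnfsf9 (9.48-fold and 15.8-fold) followed. Because the cells were chosen by their transcripts, these ratios describe the choice and test nothing. The nearest cells by rule differed from the selected ones in the same way in both libraries. The 252 and 295 cells that met every other condition but had 0 to 3 lectin UMIs carried Xcr1 at 113 and 82.0 CPM, Fscn1 at 114 and 60.0 CPM and Ccr7 at 317 and 140 CPM, each well above the selected cells. In the 81 and 53 lectin cells with 0.4% or more C1q, Mgl2 was at 735 and 694 CPM and Flt3 at 11.3 and 4.81 CPM.

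Ccl17 (ENSMUSG00000031780, chromosome 8, 94810453-94812036) was carried by a minority of the selected cells, and among those cells it was steeply graded. Without thinning, 59 of 192 cells (30.7%, 24.3 to 37.8) in 10% Tet2-/- BMT and 43 of 191 (22.5%, 16.8 to 29.1) in 10% Tet2+/+ BMT had a UMI of it. After thinning to 2000 UMIs the counts were 47 of 190 (24.7%) and 29 of 189 (15.3%). Neutrophil-transcript cells had it in 0.692% and 1.29% without thinning and in 0.24% and 0.622% after it. Of the cells with Ccl17 seen after thinning, 8 and 5 had 1 UMI, 6 and 9 had 2, and 33 and 15 had 3 or more, up to 41 and 36 UMIs. Presence of a UMI is thus a range and not a cell type, and 14 cells in each library lie at 1 or 2 UMIs.

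Ccl22 (ENSMUSG00000031779, 94745590-94751699), the other Ccr4 ligand, lies on the same strand of chromosome 8, and the RefSeq starts of the pair are 64769 bases apart. Both chemokines were higher in 10% Tet2-/- BMT, so the sequences before their starts are shown (RefSeq, GRCm38.p6, + strand, 5′ to 3′). The Ccl17 run is chr8:94810203-94810452 and the Ccl22 run chr8:94745434-94745589, each ending just before the first annotated start of its gene.
Ccl17: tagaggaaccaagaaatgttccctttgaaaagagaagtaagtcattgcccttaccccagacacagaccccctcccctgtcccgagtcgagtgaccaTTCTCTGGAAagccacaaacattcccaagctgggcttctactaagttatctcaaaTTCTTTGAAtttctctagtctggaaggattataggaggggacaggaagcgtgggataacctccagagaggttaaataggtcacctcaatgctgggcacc
Ccl22: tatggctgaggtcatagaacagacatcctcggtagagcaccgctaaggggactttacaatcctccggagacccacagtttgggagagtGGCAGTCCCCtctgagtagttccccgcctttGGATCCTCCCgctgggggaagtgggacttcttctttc
Capitals mark motif matches. In Ccl17 they are TTCNNNNGAA, the spacing bound by STAT6, at 154 to 145 bases before the start, and TTCNNNGAA, the spacing of other STAT factors, at 99 to 91 bases. In Ccl22 they are minus-strand matches to GGGNNNNNCC, an NF-kB motif, at 162 to 153 and 131 to 122 bases before the RefSeq start. Both strands of the 250 bases before each of 32851 RefSeq starts were searched, and 5.85% held TTCNNNNGAA, 7.02% TTCNNNGAA, 45.8% GGGNNNNNCC and 2.44% GAGGAAGT, a PU.1 core. Ccl17 had no match to GGGNNNNNCC, Ccl22 none to either STAT spacing, neither had GAGGAAGT, and Plet1 had none of the 4. A match describes letters only, and factor binding was not measured.

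Several gene groups followed Ccl17 within the selected cells, and each gene named next lay on the same side in both libraries. In 10% Tet2-/- BMT, cells with Ccl17 seen against cells without it had Mmp12 at 1009 against 31.9 CPM, Plet1 at 546 against 92.6 CPM, Ccl22 at 343 against 40.1 CPM, and Bcl2a1b, a survival gene with near-identical copies, at 1180 against 193 CPM. In 10% Tet2+/+ BMT the same comparison gave Mmp12 at 824 against 66.2 CPM, Plet1 at 454 against 19.6 CPM, Ccl22 at 142 against 6.54 CPM and Bcl2a1b at 1058 against 159 CPM. The adhesion genes Epcam (223 against 42.2 CPM; 285 against 29.8 CPM) and Cdh1, which encodes E-cadherin (105 against 14.7 CPM; 162 against 12.7 CPM), followed the same pattern. Cd207 was near 0 in the selected cells as a whole, so the Langerhans cell list, which summed to 620 against 127 CPM in 10% Tet2-/- BMT and 764 against 137 CPM in 10% Tet2+/+ BMT, was made up mainly of Epcam, Cdh1, the receptor kinase gene Axl (166 against 32.3 CPM; 146 against 49.0 CPM) and Tgfbr1, a receptor of TGF-beta (110.5 against 28.9 CPM; 137 against 30.6 CPM). Itgax (387 against 105 CPM; 377 against 125 CPM), Irf4 (120 against 37.1 CPM; 90.4 against 34.3 CPM), Ccr7 (125 against 42.7 CPM; 122 against 25.3 CPM) and Mgl2 (772 against 175 CPM; 1058 against 367 CPM) were also higher where Ccl17 was seen. Ccr7 rested on few cells, with a UMI in 18 and 14 selected cells and 83.2% and 92.6% of its UMIs in 5 of them.

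The reverse held for monocyte genes and for several genes of the label itself. The monocyte list summed to 1974 CPM with Ccl17 seen against 8093 CPM without in 10% Tet2-/- BMT, and to 1656 against 7814 CPM in 10% Tet2+/+ BMT. Lyz2, a lysozyme, was at 929 against 4771 CPM and 715 against 4151 CPM, Plac8 at 131 against 817 CPM and 90.4 against 1024 CPM, and Ly6c2 at 12.4 against 160 CPM and 16.8 against 259 CPM. The chemokine receptor gene Ccr2 (263 against 682 CPM; 204 against 712 CPM) and the quiescence factor Klf2 (119 against 617 CPM; 121 against 840 CPM) were lower where Ccl17 was seen. So were Cd209a (343 against 768 CPM; 355 against 824 CPM), Clec10a (301 against 509 CPM; 129 against 400 CPM), Flt3 (34.1 against 73.7 CPM; 30.1 against 73.9 CPM) and Cd7, an early dendritic cell and lymphocyte gene (4.13 against 118 CPM; 5.02 against 121 CPM). The rule asked for a sum of Cd209a, Clec10a and Mgl2, so a cell with enough Mgl2 needed neither of the others. The opposite sides of these lectins are therefore partly set by the choice. Cd74 was nearly level (30085 against 26654 CPM; 30091 against 26582 CPM). The cells with Ccl17 seen were deeper before thinning (median 19909 against 14561 UMIs; 20864 against 13491.5 UMIs), so shares are compared at 2000 UMIs.

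At equal depth the genes met in the same cells. Mmp12 was seen in 24 of 47 cells with Ccl17 (51.1%, 36.1 to 65.9) and 2 of 143 without (1.4%, 0.17 to 4.96) in 10% Tet2-/- BMT, and in 11 of 29 (37.9%, 20.7 to 57.7) and 8 of 160 (5%, 2.18 to 9.61) in 10% Tet2+/+ BMT. Plet1 was seen in 34% and 2.8% of those cells in 10% Tet2-/- BMT, and in 34.5% and 2.5% in 10% Tet2+/+ BMT. Plac8 went the other way, at 12.8% with Ccl17 and 59.4% without in 10% Tet2-/- BMT, and 13.8% and 61.2% in 10% Tet2+/+ BMT. In thinned neutrophil-transcript cells Mmp12 and Plet1 stood at 0.144% to 0.295%, and Plac8, which neutrophil-lineage cells also express, at 15.9% and 22.1%.

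**Figure D2:**
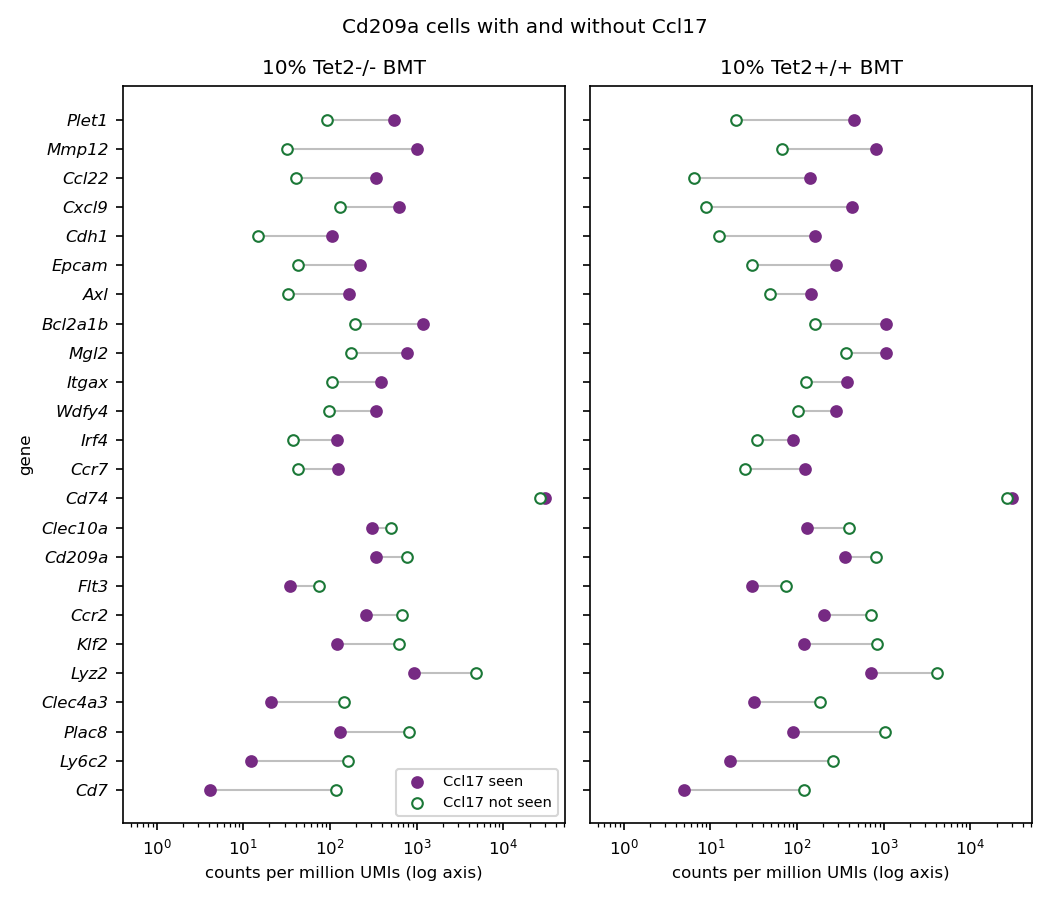
Summed level (CPM, log axis) of 24 genes in selected cells with Ccl17 seen (filled) and not seen (open) after thinning to 2000 UMIs, 10% Tet2-/- BMT on the left and 10% Tet2+/+ BMT on the right, joined by a line per gene. From Plet1 to Ccr7 the filled points are higher in both libraries, and from Clec10a to Cd7 they are lower in both. Mgl2, Cd74, Clec10a and Cd209a are genes of the rule.

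The cells were also divided by which lectin led, and Ccl17 and its companions were lower where Cd209a led. Cd209a outnumbered Clec10a and Mgl2 together in 77 cells (40.1%, 33.1 to 47.4) of 10% Tet2-/- BMT and 94 cells (49.2%, 41.9 to 56.5) of 10% Tet2+/+ BMT. Because the rule used the sum of these lectins, this division is a description of the selected cells. In these Cd209a-led cells against the rest, Ccl17 was at 273 against 1627 CPM and 30.4 against 971 CPM, Mmp12 at 48.8 against 487 CPM and 20.6 against 362 CPM, and Epcam at 25.6 against 138 CPM and 20.6 against 125 CPM. Plac8 was at 856 against 466 CPM and 1253 against 527 CPM. Flt3 was at 73.5 against 54.9 CPM in 10% Tet2-/- BMT and 103 against 36.9 CPM in 10% Tet2+/+ BMT. Other monocyte genes did not divide alike in both libraries. Lyz2 was at 4441 against 3144 CPM and 3635 against 3356 CPM, Ccr2 at 676 against 487 CPM and 597 against 627 CPM, and Fn1 at 244 against 106 CPM and 140 against 406 CPM. The monocyte list summed to 8108 against 5171 CPM in 10% Tet2-/- BMT and 7267 against 6105 CPM in 10% Tet2+/+ BMT.

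Few of the selected cells were cycling. After thinning, 10 cells (5.21% of all 192, 2.53 to 9.37) in 10% Tet2-/- BMT and 9 cells (4.71% of all 191, 2.18 to 8.76) in 10% Tet2+/+ BMT had 2 or more UMIs of 18 genes of G2/M phase. These shares count the 2 and 2 cells left out of thinning among the cells not cycling. Mki67, the proliferation antigen, is one of those 18, so its 685 against 34.3 CPM in the other selected cells of 10% Tet2-/- BMT, and 721 against 11.8 CPM in 10% Tet2+/+ BMT, only describes the choice. Ccr7 and Cxcl9 had no UMI in them, Il1b was at 1788 against 5422 CPM and 1187 against 3489 CPM, and Apoe at 184 against 937 CPM and 141 against 971 CPM. Flt3 stayed similar, at 46.1 against 63.5 CPM and 78.4 against 64.2 CPM.

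Within the selected cells thinned to 2000 UMIs, the genes of highest variance over mean (the lower of both libraries) were Lyz2 (30.2 and 21.2), Retnla (26.4 and 20.6), Cxcl2 (32.9 and 19.1), Cxcl10 (16.4 and 17), Ccl17 (16.3 and 16.8), Fabp5 (29.3 and 15.4), Apoe (15.1 and 12.4), Cst3 (14 and 11.1), Cxcl9 (16.2 and 10.8), Gm42418 (10.7 and 110), Ifitm1 (18.6 and 10.3) and Fth1 (16.8 and 9.76). The median over 2207 genes was 1.08 in both. Retnla, a gene of alternative activation by interleukin 4, rested on 1.58% and 3.7% of cells, up to 31 and 27 UMIs. Cst3, a cystatin abundant in dendritic cells, was seen in 98.9% of cells in each library and varied by level. Gm42418, a gene model that overlaps ribosomal RNA repeats, reached 732 of 2000 UMIs in 1 cell of 10% Tet2+/+ BMT.

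Between the libraries, most genes of the selected cells were close. Genes were compared where at least 1 library reached 50 CPM and both together 100 UMIs, genes of the rule left out. Of these 2640 genes, 29 (1.1%) were higher and 43 (1.63%) lower in 10% Tet2-/- BMT by 1.5-fold or more (2.73% in all), on a log2 scale with a pseudocount of 10 CPM. The median log2 ratio was -0.01 and the quartiles were -0.14 and 0.10. All 72 had a counting interval that excluded equality, as did 885 of the 2640 genes, most of which differed by little. Folds given below carry no pseudocount.

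The genes higher in 10% Tet2-/- BMT included T cell chemoattractants. Ccl22 was at 129 CPM (117 to 142) against 33.1 CPM (27.0 to 40.3), or 3.90-fold (3.13 to 4.89). Ccl17 was at 1112 CPM (1077 to 1149) against 566 CPM (539 to 593), or 1.97-fold (1.86 to 2.08), and Cxcl9, an interferon-gamma-induced ligand of Cxcr3, at 277 against 91.9 CPM, or 3.02-fold (2.64 to 3.46). Each rested on few cells: without the 5 cells of most UMIs in each library, Ccl22 was at 41.9 against 8.84 CPM, Ccl17 at 696 against 240 CPM and Cxcl9 at 60.3 against 5.80 CPM. The direction was kept in all 3, and carriers numbered 38 against 19 cells for Ccl22, 59 against 43 for Ccl17 and 23 against 15 for Cxcl9. All other kept cells had Ccl22 at 41.1 against 6.39 CPM and Ccl17 at 35.8 against 16.2 CPM, but Cxcl9 at 54.2 against 46.8 CPM.

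Ccl17 and its companions were compared again separately in cells with Ccl17 seen and not seen after thinning. The split uses Ccl17 itself, so its own ratio on either side is partly set by the split. Nor was its level fixed, since 33 of 47 against 15 of 29 cells with Ccl17 seen had 3 or more UMIs. Among cells with Ccl17 seen, Ccl17 was at 3763 against 2805 CPM, 1.34-fold (1.27 to 1.42), and Plet1 at 546 against 454 CPM, 1.2-fold (1.04 to 1.4), both under 1.5-fold. Ccl22 remained 2.41-fold higher there (1.89 to 3.09). Among cells with Ccl17 not seen, Plet1 was at 92.6 against 19.6 CPM, Ccl22 at 40.1 against 6.54 CPM and Cxcl9 at 131 against 8.99 CPM, whereas Mmp12 was lower, at 31.9 against 66.2 CPM. At 2000 UMIs, Plet1 and Ccl22 were each seen in 4 of those 143 cells against 4 of 160, and Mmp12 in 2 against 8. Few cells carried these genes there, and the cells of most UMIs were not left out within this split. Where Ccl17 was seen, Cxcl9 was at 629 against 432 CPM, 1.46-fold, and Mmp12 at 1009 against 824 CPM, 1.22-fold, both under 1.5-fold. Over all selected cells Plet1 was at 226 CPM (210 to 243) against 105 CPM (93.5 to 117), or 2.16-fold (1.89 to 2.47), and Mmp12 at 320 against 215 CPM, or 1.49-fold (1.35 to 1.65), just under the size asked for. Of the Plet1 UMIs, 53.2% and 64.6% lay in 5 cells, and 109 against 38.4 CPM was left without them. In cells thinned to 2000 UMIs, Plet1 was under 1.5-fold.

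Other genes of higher level in 10% Tet2-/- BMT were of mixed kind. The interferon-inducible membrane gene Ifitm1 was at 1694 CPM (1649 to 1739) against 708 CPM (678 to 738), with a UMI in 129 against 95 cells, and at 1207 against 452 CPM without the 5 highest cells. The matricellular gene Thbs1 was at 218 against 61.4 CPM, and at 59.3 against 21.9 CPM without those cells. Grasp, a scaffold protein gene, was at 102 against 39.7 CPM, the checkpoint ligand Cd274 (PD-L1) at 73.8 against 38.1 CPM, the thioredoxin reductase Txnrd1 at 114 against 63.6 CPM, and Bcl2a1a, whose copies share reads, at 80.8 against 41.0 CPM. For 2 of the 12 highest, the ratio did not stay past 1.5-fold without the 5 highest cells. Ube2c, a mitotic gene, was at 63.5 against 22.3 CPM and at 10.2 against 5.22 CPM without its 5 highest cells, a log2 ratio of 0.41, and Cxcl3, a neutrophil attractant, was at 90.2 against 47.9 CPM and at 2.50 against 1.71 CPM without them, a log2 ratio of 0.10. Both were then under 1.5-fold.

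Among genes lower in 10% Tet2-/- BMT, several rested on a few 10% Tet2+/+ BMT cells. Lyz1, a near-identical copy of Lyz2, had 10 UMIs in 3 cells against 419 UMIs in 15 cells, or 3.04 against 137 CPM, and 93.6% of the 10% Tet2+/+ BMT UMIs lay in 5 cells, without which 0 against 9.18 CPM was left. The chemokine Ccl5 was at 70.2 against 240.5 CPM and at 34.5 against 47.1 CPM without the 5 highest cells, a log2 ratio of -0.36, under 1.5-fold. Spp1, the osteopontin gene, was at 45.6 against 124 CPM, but at 18.5 against 7.26 CPM without those cells, which turned its direction. In all other kept cells Spp1 was higher in 10% Tet2-/- BMT, at 239 against 70.5 CPM. Lpl, lipoprotein lipase, was at 34.0 against 73.2 CPM, and at 8.19 against 16.7 CPM without the 5 highest cells, under 1.5-fold on the scale with the pseudocount.

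A second set of lower genes was spread over many cells. The heat shock gene Hspa1a was at 41.3 CPM (34.7 to 48.9) against 132 CPM (120 to 146), in 50 against 80 cells, and at 29.4 against 101 CPM without the 5 highest. Tppp3, a tubulin-binding protein gene, was at 32.5 against 95.1 CPM, and at 20.4 against 71.1 CPM without them. The keratin gene Krt80 (28.9 against 76.8 CPM, 45 against 100 cells), the myeloid transcription factor Cebpa (38.0 against 92.5 CPM, 77 against 107 cells), the lectin Clec4a1 (56.5 against 116 CPM, 71 against 114 cells) and the glucocorticoid-induced gene Tsc22d3 (53.5 against 111 CPM, 80 against 120 cells) were alike in this. The growth regulator Slfn1 (35.8 against 87.3 CPM) and the stress gene Nupr1 (49.2 against 101 CPM) completed the 12. Of the genes ranked, 7 of 27 higher and 9 of 40 lower were past 1.5-fold the same way in all other kept cells too. The share of all 2640 genes past 1.5-fold in other kept cells was not counted, so these counts have no background to be read against.

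**Figure D3:**
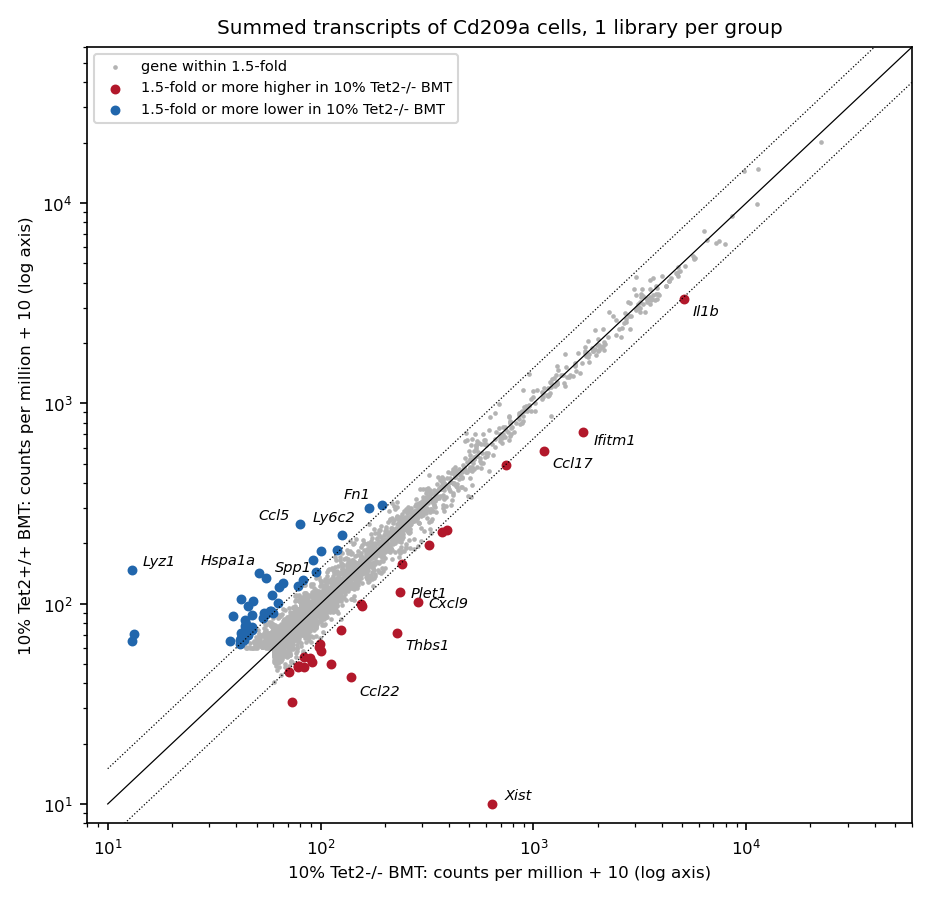
Each point is 1 of 2640 genes, by its summed level in the selected cells of 10% Tet2-/- BMT (x axis) and 10% Tet2+/+ BMT (y axis), in CPM plus 10 on log axes; dotted lines mark 1.5-fold. The 29 red genes are higher and the 43 blue genes lower in 10% Tet2-/- BMT, and 97.3% of genes lie between the lines.

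**Figure D4:**
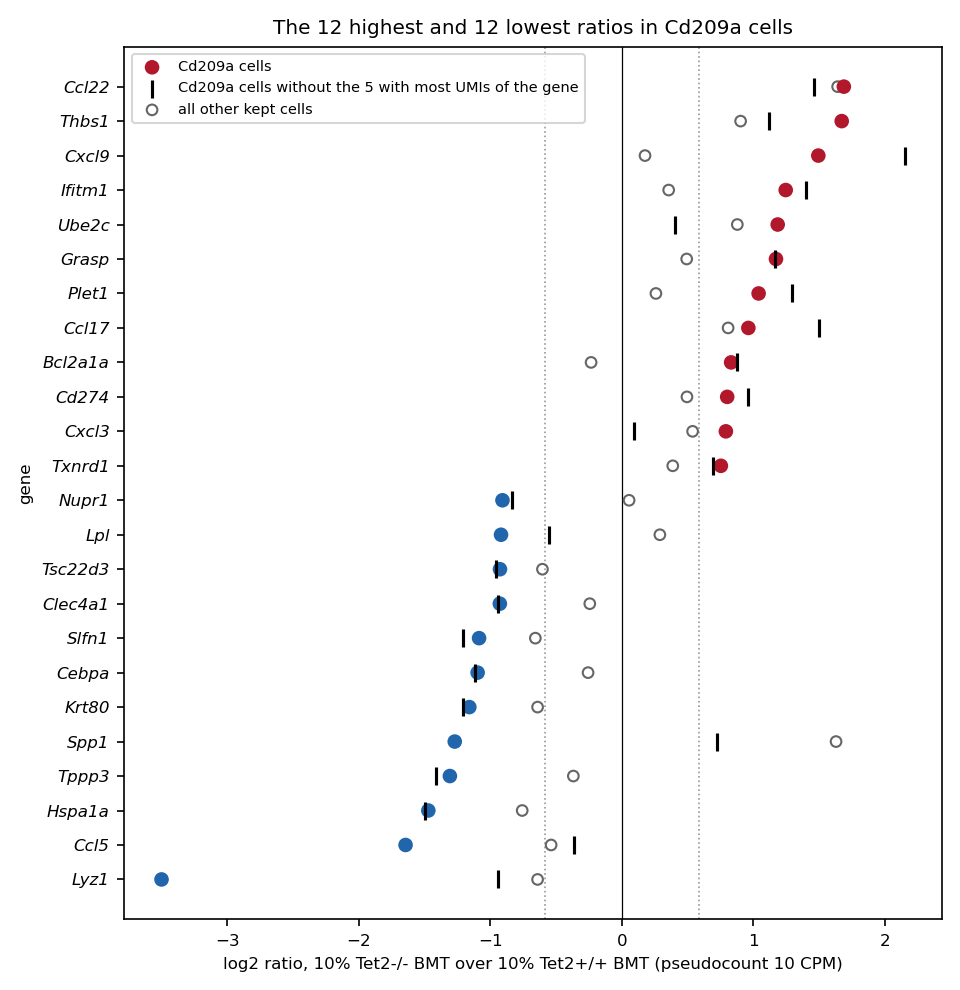
Log2 ratio of 10% Tet2-/- BMT over 10% Tet2+/+ BMT for the 12 highest and 12 lowest genes, in the selected cells (filled), in the selected cells without the 5 with most UMIs of the gene (bar) and in all other kept cells (open). For Spp1 the bar lies on the opposite side of 0, and for Cxcl3, Ube2c, Ccl5 and Lpl it lies within 1.5-fold.

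On the list of type 2 conventional dendritic cells and the lists of antigen presentation no gene passed 1.5-fold, where 2.73% of all genes compared did. The rule set a minimum share of MHC class II in both libraries, so levels of that list are partly set by the choice. Of 19 genes compared on the list of type 2 conventional dendritic cells, none passed 1.5-fold (median log2 ratio -0.03, against -0.01 over all genes compared), nor did any of 12 genes of MHC class II presentation (0.04) or 13 of MHC class I presentation (0.05). The nearest to 1.5-fold on the 3 lists were H2-Oa, which restrains peptide loading (235 against 173 CPM), its partner in the loading pathway H2-DMb2 (227 against 169 CPM), Cd24a, a surface glycoprotein gene (70.5 against 95.8 CPM), Runx3 (207 against 158 CPM) and Irf4 (61.7 against 45.6 CPM). Of 6 genes on the type 1 dendritic cell list (median -0.24), 2 of the plasmacytoid list (-0.09) and 3 of the Langerhans cell list (0.07), none passed. The mature migratory list had 2 of 11 higher (Ccl22, Cd274) and 2 lower (Ccl5 and Tbc1d4, a regulator of glucose transporter traffic at 34.6 against 68.9 CPM), with a median of 0.04. Of the 6 markers of the selected cells, 3 lay outside the rule. Of these 3, Plet1 and Ccl17 were higher by 1.5-fold or more and Mmp12 was just under it (median 0.96).

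Chemokine ligands were the list with most genes past 1.5-fold. Of 13 chemokine ligands, 4 were higher (Ccl22, Cxcl9, Ccl17, Cxcl3) and 1 lower (Ccl5), with a median of 0.38, set against 1.1% and 1.63% of all genes compared. Of 9 genes of type 2 immunity, 2 were higher, the same Ccl17 and Ccl22 (median 0.08). The interleukin 4 receptor gene Il4ra was at 94.8 against 75.5 CPM, its signal factor Stat6 at 41.9 against 46.9 CPM, and the eosinophil attractant Ccl24 had 0 UMIs against 3. Of 7 inflammatory cytokine genes, 2 were higher (median 0.08). Il1b was at 5109 CPM (5032 to 5186) against 3297 CPM (3232 to 3362), 1.55-fold, although it was at 6380 against 6935 CPM in all other kept cells, and Osm was at 147 against 87.6 CPM. Tnf was at 74.1 against 95.5 CPM. Of 8 costimulation and checkpoint genes 1 was higher (Cd274, median 0.13), of 7 chemoattractant receptors 1 (Ccr1, 230 against 148 CPM, median 0.09), of 3 Toll-like receptor genes and adaptors 1 (Cd14, 362 against 217 CPM, median 0.34), of 16 NF-kB genes 1 (Tnip3, 729 against 481 CPM, or 627 against 416 CPM and just under 1.5-fold without its 5 highest cells, and past it in only 8 of 19 alternative analyses; median 0.16), of 6 interferon-gamma-response genes 1 (Cxcl9, median 0.29) and of 10 survival genes 1 (Bcl2a1a, median 0.06).

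Some lists had more genes lower than higher in 10% Tet2-/- BMT, where 1.63% of all genes compared were lower. Of 22 type I interferon-stimulated genes, 3 were lower (Ifit1 at 32.2 against 57.4 CPM, Oasl2 at 53.2 against 90.9 CPM and Xaf1 at 48.6 against 82.0 CPM) and none higher, with a median of -0.25. Without its 5 highest cells Ifit1 was at 15.2 against 24.4 CPM, under 1.5-fold. All other kept cells lay the same way, with Ifit1 at 19.2 against 48.6 CPM and Oasl2 at 48.1 against 125 CPM. Of 9 C-type lectin receptors outside the rule, 1 was lower (Clec4a1) and the median was -0.37, with Mrc1 at 85.4 against 124 CPM and Clec4a3 at 108 against 154 CPM. Of 14 monocyte genes, 3 were lower (Fn1 at 158 against 292 CPM, Ly6c2 at 116 against 211 CPM and Fcgr1 at 45.6 against 78.7 CPM) and 1 higher (Thbs1), with a median of -0.18. Without the 5 highest cells, Fn1 was at 79.5 against 104 CPM and Ly6c2 at 52.2 against 77.3 CPM, both within 1.5-fold. Fcgr1 was also the 1 lower of 6 macrophage genes (median -0.25), and 2 non-classical monocyte genes did not pass (-0.17). Among cells with Ccl17 seen, the list medians were on the other side of 0 for type I interferon genes (0.22), monocyte genes (0.30) and macrophage genes (0.004).

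Of 10 neutrophil genes, 3 were lower (Csf3r at 34.3 against 67.6 CPM, Hdc at 32.5 against 61.0 CPM, Camp at 48.0 against 81.4 CPM; median -0.10). Retnlg, a defining neutrophil gene, was at 147 against 132 CPM in the selected cells and at 13293 against 12720 CPM in neutrophil-transcript cells. Free RNA was estimated from neutrophil genes, Camp and Retnlg among them, at 1.33% of the selected cells' UMIs in 10% Tet2-/- BMT and 1.77% in 10% Tet2+/+ BMT, an upper estimate if any of those cells hold neutrophil RNA of their own. With it subtracted, the median of the neutrophil list, which holds genes that set the estimate, turned from -0.10 to 0.11. The log2 ratio of Csf3r was then -0.80 and the log2 ratio of Hdc -0.77, close to the -0.81 and -0.74 without subtraction. The log2 ratio of Camp, one of the genes that set the estimate, was -0.66 before and 0 after subtraction. Of 22 immediate early and dissociation genes none passed (median -0.19), with Klf2 at 470 against 700 CPM and Ier2 at 682 against 978 CPM, and of 8 heat shock genes 1 was lower (Hspa1a, median -0.16).

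In the remaining lists few genes passed. None of 20 oxidative phosphorylation genes (median -0.02), 12 glycolysis genes (0.13), 19 actin and migration genes (-0.09) or 6 eicosanoid genes (0.11) passed 1.5-fold. Of 7 lipid and scavenger genes 1 was higher (Fabp5, 311 against 186 CPM) and 2 lower (Spp1, Lpl; median -0.10), of 5 matrix proteases and inhibitors 1 was lower (Timp1, 37.4 against 77.8 CPM, but 14.6 against 13.5 CPM without its 5 highest cells; median -0.21), and of 4 genes of G2/M phase 1 was higher (Ube2c; median 0.29). The S phase list had 1 gene compared (Pcna, 88.7 against 84.3 CPM), as had the B cell list (Ighm, 102 against 111 CPM), the natural killer list (Klrk1, 154 against 123 CPM) and the epithelial list (Epcam, 95.4 against 79.7 CPM). No gene of the T cell, mast cell, eosinophil or stromal lists reached the minimum, and their summed levels ran from 3.95 to 50.1 CPM in 10% Tet2-/- BMT and from 5.58 to 39.0 CPM in 10% Tet2+/+ BMT.

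**Figure D5:**
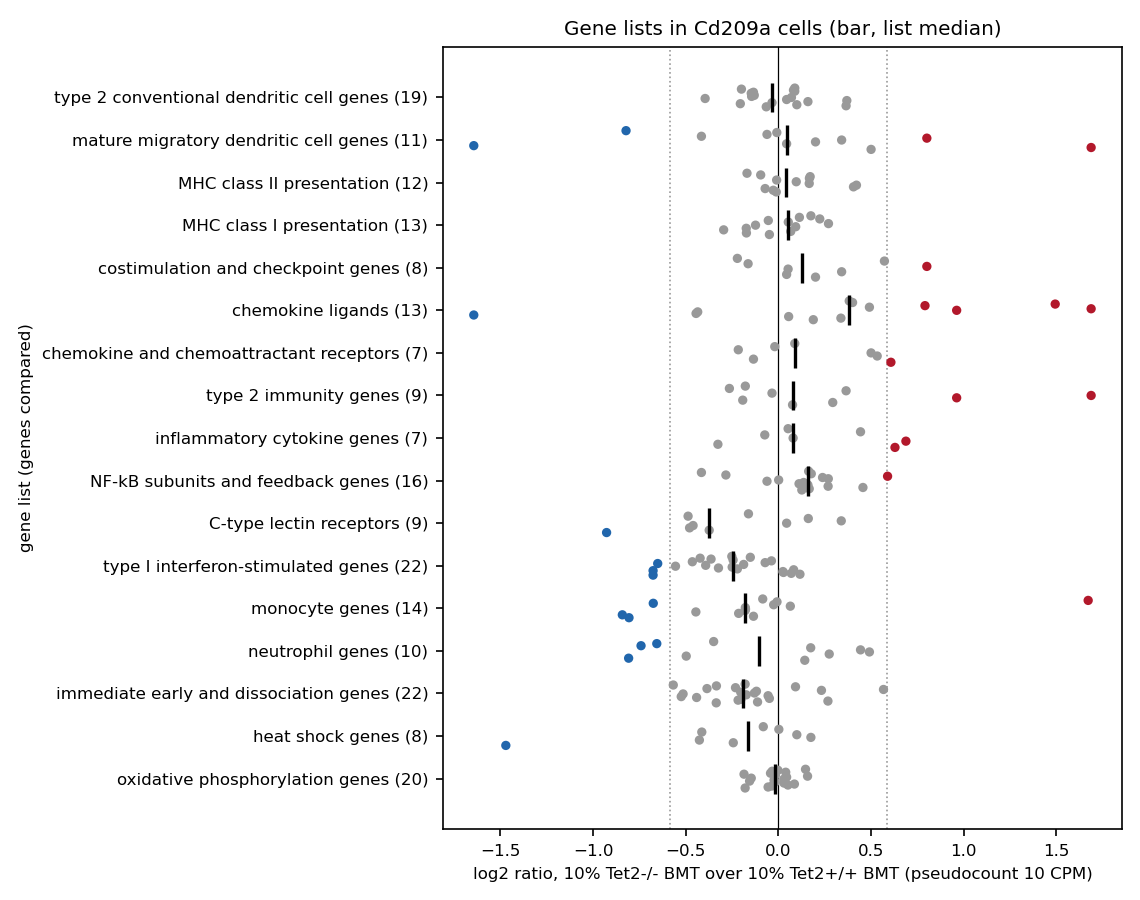
Log2 ratio of 10% Tet2-/- BMT over 10% Tet2+/+ BMT in the selected cells for each gene compared (points) of 17 lists, with the number of genes in parentheses, the list median (bar) and 1.5-fold (dotted lines); red is higher and blue lower by 1.5-fold or more. Chemokine ligands hold 4 higher genes and 1 lower, and type I interferon-stimulated genes 3 lower and none higher.

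Tet2 (ENSMUSG00000040943, chromosome 3, 133463679-133545139) was the 1 gene of DNA methylation and demethylation above the minimum, at 75.6 CPM (66.5 to 85.6) against 65.9 CPM (57.1 to 75.7), or 1.15-fold (0.949 to 1.39). The assay reads transcript ends and no source used here gives the deleted part, so this level checks nothing about the genotype. Sex-linked transcripts did separate the selected cells. In 10% Tet2-/- BMT, 173 of 192 cells carried Xist without Y-linked transcripts, 4 carried only Y-linked transcripts, 9 both and 6 neither. In 10% Tet2+/+ BMT, 156 of 191 carried only Y-linked transcripts, 35 neither and none Xist. The donor label, the sex of most cells and, by one of the labels, the sort gate therefore change together between the libraries and cannot be told apart.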

How the data were processed

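About 20000 cells per library were loaded on a Chromium 3′ kit of version 3.1, per the labels' protocols. The submitters' processing notes name Cell Ranger 6.1.2 and the build mm10, whereas the matrix header names version 4. The deposited files hold raw UMI counts per gene and barcode, empty barcodes included, for 32285 genes, of which 32235 identifiers matched GENCODE M21 (GRCm38), used for positions.

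Cells were filtered, selected and summed per library with Python 3.11.15, numpy 2.4.6, scipy 1.17.1 and pandas 2.3.3; no clustering was used. Of barcodes with 500 or more UMIs, 248 and 489 failed the gene or mitochondrial condition. Summed counts were scaled to CPM, and cells were thinned by drawing 2000 UMIs without replacement where shares were compared. Intervals are Clopper-Pearson for shares, exact Poisson for levels and conditional binomial for ratios. Neutrophil-transcript cells had 3% or more S100a8 and S100a9 and under 0.2% MHC class II UMIs. Doublet scores came from Scrublet in scanpy 1.11.5. Free RNA was profiled in barcodes with 1 to 50 UMIs. The comparison was tested on simulated data. Depth limits precision: a gene at 50 CPM in both libraries has over 100 UMIs in each.

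The members, lists and comparisons were chosen with earlier results of these data known. Named genes are those of the rule and its 6 markers, the 12 highest and 12 lowest ratios past 1.5-fold (leaving out Xist, Y-linked, ribosomal, mitochondrial, antigen receptor, haemoglobin and unnamed genes), the 15 highest over other cells, the 12 most variable, Tet2, up to 4 per list and defining genes of other cell types. Itgam and other list genes, such as Flt3, Zbtb46, Cd7, Plac8, Cdh1, Stat6 and Ccl24, were named after their values were seen. Alternatives changed each condition of the selection, the scaling, thinning, free RNA, pseudocount and minimum level; leaving out the 5 cells with most UMIs of a gene, splitting by Ccl17 and lifting the lymphoid condition were added after the data were seen.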

Additional observations from a re-analysis of the deposited data

How the results depend on the processing

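No paired analysis was possible because each group has 1 library. The share of selected cells stayed higher in 10% Tet2-/- BMT under each condition tried. In 10% Tet2-/- BMT against 10% Tet2+/+ BMT it was 1.73% against 1.45% at 6 or more lectin UMIs, 1.62% against 1.48% with lectins at 0.05% of UMIs, 1.75% against 1.41% at 3% MHC class II and 2.47% against 2.01% without the lymphoid condition. Of the 2640 genes compared, 29 were higher and 43 lower. The counts were 44 higher with C1q under 0.1%, 85 higher and 120 lower at 10 CPM and 20 UMIs (7266 genes), 94 higher and 129 lower with no minimum (14773 genes), 59 higher in cells with Ccl17 seen (1891 genes), and 20 lower in thinned cells, where 965 genes reached the minimum. Higher genes were 40.3% of those past 1.5-fold, but 58.3% after thinning, 51.2% without the 5 cells of most UMIs and 54.1% with Ccl17 seen. The median log2 ratio over all genes was -0.011 by total UMIs, 0 by median of ratios and 0.019 by TMM.

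Of 779 values of the 41 named genes past 1.5-fold under 19 alternatives, 685 stayed past it the same way, 74 kept the direction under 1.5-fold and 20 took the opposite direction; Ccl22, Clec4a1, Grasp, Hspa1a, Ifitm1, Lyz1, Nupr1, Tbc1d4 and Tppp3 stayed past it under all 19. The log2 ratio of Cxcl3 was -0.97 at 6 lectin UMIs, -2.14 with lectins at 0.05%, -0.89 at 3% MHC class II, -0.84 without the highest doublet scores and -1.37 with Ccl17 seen. The log2 ratio of Fabp5 was -0.24 and -0.53 under both lectin alternatives. The log2 ratio of Spp1 was 0.75 with C1q under 0.1%, 0.73 without 5 cells and 1.61 with Ccl17 not seen. The log2 ratio of Ifit1 was 0.049 with C1q under 0.1% and 0.53 with Ccl17 seen, the log2 ratio of Lpl 0.10 after thinning, and the log2 ratio of Timp1 0.07 without 5 cells. With Ccl17 seen, the log2 ratio of Krt80 was 0.091, the log2 ratio of Hdc 0.38, the log2 ratio of Cd14 -0.044 and the log2 ratio of Oasl2 0.15. With Ccl17 not seen, the log2 ratio of Ccl17 was -0.79, a level that this split itself sets. Tnip3 stayed past 1.5-fold in 8 of the 19. Camp was under it with free RNA subtracted, and Thbs1 at 3% MHC class II and without the highest doublet scores. The cause was not tested.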
